A study of Mus musculus with 16 samples.

Results

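The comparison described here sets mouse embryonic stem cells after 4 h of auxin against the same line after 2 h of auxin. All 4 libraries are of E14 cells of the genotype given as Ddx10-AID, Tir1. Auxin, as indole-3-acetic acid at 500 µM, was added to bring about degradation of DDX10. The cells grew on gelatin in a high-glucose medium with 15% serum, 3 µM CHIR99021, 1 µM PD0325901 and 1000 U/mL of leukemia inhibitory factor (LIF), and every group shared the tag, Tir1 and this medium. There were 2 libraries per time, chosen by their labels as 4 of the 16 libraries of a time course that runs from untreated cells to 2 days of auxin and a 2-day withdrawal. Of 14552 genes in the table, 13355 averaged 10 or more normalized read counts in the 16 libraries and were tested. Untagged cells given auxin were not analysed here, so effects of auxin itself and of DDX10 loss cannot be told apart, and nothing says whether the line is 1 clone.

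DDX10 is a DEAD-box RNA helicase of the nucleolus, and the study asks about its part in 18S rRNA processing and pluripotency. In an auxin-inducible degron line, auxin joins the tagged protein to the plant receptor TIR1, and the protein is ubiquitinated and destroyed while its mRNA is still made. When ribosome assembly is disturbed, unassembled ribosomal proteins are known to bind MDM2, the ubiquitin ligase that keeps p53 low, and p53 then accumulates and switches on genes for growth arrest, cell death and its own feedback. Embryonic stem cells are kept undifferentiated in this medium by LIF signalling through STAT3, by blocking the kinase MEK and by blocking GSK3.

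The 4 libraries were alike in size. The normalized counts summed to 16.6 M and 16.5 M in the 4 h libraries, against 16.7 M and 16.8 M in the 2 h libraries, and the 10 most abundant genes held 5.52% to 5.62% of each. Replicates differed by an SD of 0.39 on the log2 scale at 4 h and 0.40 at 2 h, with 439 and 437 genes at least 2-fold apart, while untreated (0.62, 1090 genes) and 1 day replicates (0.53, 774 genes) stood further apart. The 8 libraries of 2 h to 12 h stood apart from the 8 others for 1015 of the 13355 genes, and both groups compared here lie on the same side of that division. All 10 embryonic stem cell markers were in the table, and their summed level was 88657 and 92227 normalized counts in the 4 h libraries, against 100182 and 99267 in the 2 h libraries. Of these 10 markers 3 were called lower, Utf1, Zfp42 and Fgf4, against 0.681% of all tested genes. The same 3 genes are the calls of the pluripotency list below. Of 7 fibroblast markers only 2 were in the table, with sums of 85.2 and 99.2 at 4 h, against 95.8 and 83.2 at 2 h, and none of the markers of fibroblasts, primitive endoderm, trophoblast, neural cells or mesoderm was called. The summed level of the 3 neural markers in the table was 2089 and 2212 at 4 h, against 1664 and 1645 at 2 h. That of the 4 trophoblast markers was 771 and 772 at 4 h, against 978 and 957 at 2 h. At the highest, 1 neural marker stood at 2117 and 1 trophoblast marker at 886 in a single library, so 1 gene held most of that library's sum. Nothing states that the 2 libraries of a time came from separate cultures. The p-values thus measure a spread between replicate libraries, pooled over all 8 groups of the series, that may be technical.

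Between 2 h and 4 h of auxin, 24 of 54 tested targets of p53 rose, and genes of amino acid transport and synthesis, of LIF reception and of the pluripotent state were among those that fell. In a limma fit of all 16 libraries on log2(normalized count + 1), with Benjamini-Hochberg adjustment over all tested genes, 236 genes were higher at 4 h than at 2 h (1.77% of those tested) and 91 were lower (0.681%). At least 2-fold differences were reached by 66 of the higher genes (0.494%) and 9 of the lower ones (0.0674%). The median log2 change of all genes was -0.0097 and its median standard error 0.158. Of the called genes, 68 of the 236 higher and 5 of the 91 lower were called in every fit that left out 1 of the 4 libraries: the counts were 108 and 15 without 4 h replicate 1, 87 and 10 without 4 h replicate 2, 102 and 14 without 2 h replicate 1, and 101 and 11 without 2 h replicate 2. The count depends on which other libraries supply the spread. With only the libraries of 2, 4, 6 and 12 h in the fit, an alternative chosen after seeing the data, 642 genes were higher (4.81%) and 486 lower (3.64%), and these held all 236 and all 91.

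The called genes also differed in base composition. The transcripts of the higher genes had a median GC content of 55.5% and those of the lower genes 48.1%, against 50.9% for all tested genes. Over classes of GC content the median log2 change climbed without a break, with -0.12 for the 446 genes up to 40% GC and 0.15 for the 646 genes over 60% GC. In the last class 5.26% of genes were called higher and in the first 0.224%. The lower calls showed no such order, with 0.774% in the last class, 0.224% in the first and the highest share, 1.25%, in the class of 40 to 44% GC. Replicates of 1 time differed along the same axis: taken over genes, which do not count as independent replicates, the Spearman correlation with GC content was 0.27 for 4 h minus 2 h, -0.18 for replicate 1 minus replicate 2 at 4 h and 0.20 for the same at 2 h. With the GC and length trend removed from every library, 215 genes were higher and 108 lower, 184 and 68 of them called without the removal too. The part of GC content in single results was not tested beyond that fit, whose values are given where it ended a call.

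**Figure D1:**
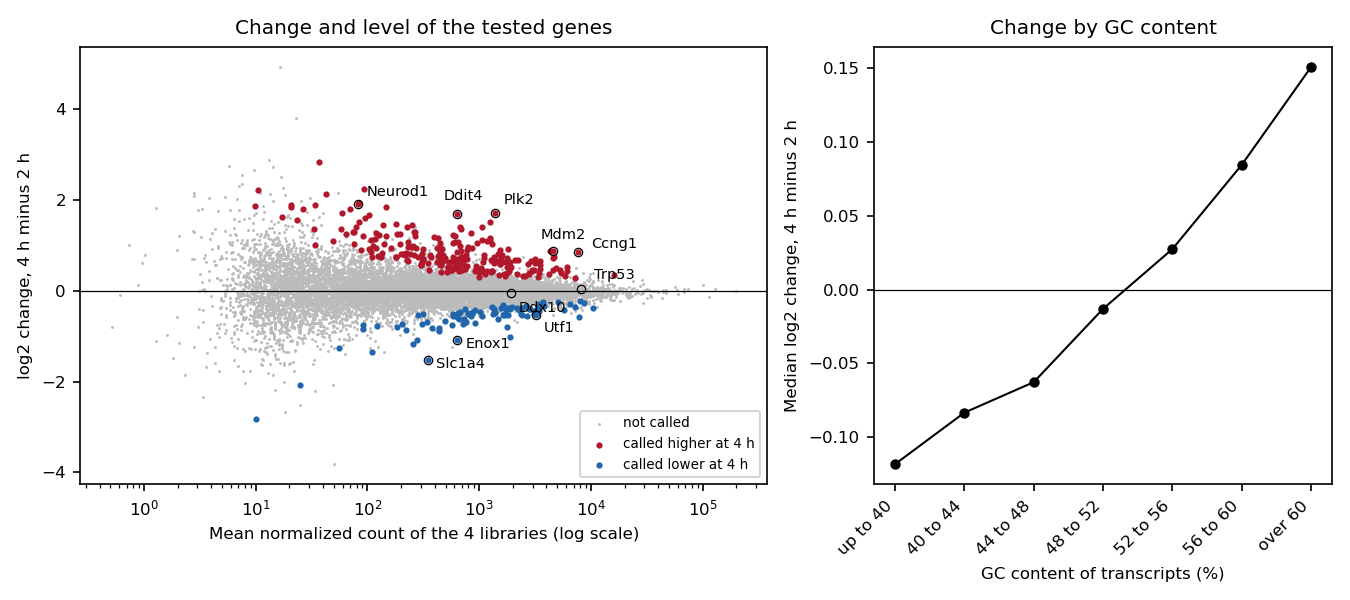
Left, log2 change of each tested gene (4 h minus 2 h, vertical axis) against its mean normalized count over the 4 libraries (log scale), with 236 genes called higher in red, 91 called lower in blue, and 10 genes ringed and named. Right, median log2 change in 7 classes of transcript GC content, climbing from -0.12 in the class up to 40% GC to 0.15 in the class over 60%.

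The targeted gene was checked first. Ddx10 mRNA stood at 1886 and 1855 normalized counts in the 4 h libraries, against 1847 and 2046 in the 2 h libraries (log2 change -0.06, SE 0.11, limma adjusted p = 0.88). The degron acts on the protein, so the mRNA level does not check the labels. Trp53, which encodes p53, was at 8160 and 8461 at 4 h, against 8373 and 7888 at 2 h (log2 change 0.03, limma adjusted p = 0.88). The groups overlapped for both genes.

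Of 8 tested feedback genes of p53, 5 rose and 1 fell, against 1.77% and 0.681% of all tested genes. Mdm2 (chr10:117688875-117710758, minus strand, 12 exons, GENCODE M21 on GRCm38) stood at 5755 and 6051 at 4 h, against 3258 and 3237 at 2 h, a 1.82-fold rise (log2 change 0.86, SE 0.09, limma adjusted p = 0.00017). Its call held without any 1 library, with log2 changes of 0.83 to 0.90. Ccng1, which encodes cyclin G1, an inhibitor of p53 that acts with MDM2 and the phosphatase PP2A, was at 9811 and 10110 at 4 h, against 5375 and 5640 at 2 h (log2 change 0.85, limma adjusted p = 2.2e-05). Trp53inp1, whose nuclear protein promotes phosphorylation of p53, was at 5588 and 5558 at 4 h, against 2995 and 3132 at 2 h (0.86, limma adjusted p = 0.00047). Both calls held without any 1 library. Pidd1, a death-domain protein of the PIDDosome, rose by a log2 change of 0.63, and Ppm1d, the phosphatase WIP1 that removes phosphates from p53, by 0.43. The Pidd1 call ended without 4 h replicate 2 or 2 h replicate 2 (limma adjusted p up to 0.071), and the Ppm1d call without any 1 of the 4 libraries (limma adjusted p of 0.10 to 0.22). In the same group Trim24, a ubiquitin ligase for p53, fell, at 3152 and 2831 in 4 h libraries, against 3640 and 3964 in 2 h libraries (log2 change -0.35, limma adjusted p = 0.049). Its call ended without any 1 library (limma adjusted p of 0.091 to 0.40) and with the GC and length trend removed (0.066).

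Of 54 tested p53 targets, 24 rose, against 1.77% of all tested genes called higher, and 1 fell, against 0.681% called lower. Their median log2 change was 0.55, against -0.0097 for all tested genes. The rise was called for 5 of 8 feedback genes, 6 of 10 growth-arrest genes, 6 of 11 cell-death genes, 6 of 16 genes of metabolism and signalling and 1 of 9 DNA-repair genes. Leaving out 1 library left 14 to 18 members called higher and none lower, 13 were called in all 4 such fits, and at an unadjusted p below 0.05 limma counted 36 higher and 1 lower, where 7.85% of all tested genes were higher and 6.47% lower. With the GC and length trend removed the count was 26 higher and 0 lower, with a median of 0.47. With the libraries of 2 to 12 h alone it was 34 higher and 1 lower, against 4.81% and 3.64% of all tested genes.

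Growth-arrest genes held the largest called rise of the p53 targets. Plk2, a polo-like kinase of the early cell cycle, was at 2047 and 2227 at 4 h, against 668 and 633 at 2 h, a 3.28-fold rise (log2 change 1.71, SE 0.17, limma adjusted p = 0.00017). Btg2, an antiproliferative partner of the CCR4-NOT deadenylase, was at 1740 and 1978 at 4 h, against 641 and 667 at 2 h (1.50, limma adjusted p = 0.00021). Cdkn1a, the CDK inhibitor p21, was at 2735 and 2728 at 4 h, against 1835 and 1618 at 2 h, a smaller rise of 1.59-fold (0.66, limma adjusted p = 0.00047). Each of these calls held without any 1 library. Psrc1, a microtubule protein that the list of mitotic genes also holds, rose by a log2 change of 0.60 (limma adjusted p = 0.00036). Zmat3, an RNA-binding zinc-finger protein, rose by 0.58 and Gtse1, a microtubule protein that restrains p53 in G2, by 0.43. The Zmat3 call ended without 4 h replicate 1 or 2 h replicate 1 (limma adjusted p up to 0.094) and the Gtse1 call without any 1 library (0.052 to 0.097). Gadd45a, another arrest gene of the list, was at 378 and 393 in 4 h libraries, against 391 and 392 in 2 h libraries (log2 change -0.02, limma adjusted p = 0.96).

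The promoters of Ccng1, Cdkn1a and Gtse1 are shown because they are the p53 targets of the list with a match to the p53 response element at 1 mismatch or fewer. The search took both strands of 300-base windows, 250 bases before and 50 after the RefSeq start (GRCm38.p6), for a pair of half-sites of the p53 consensus up to 13 bases apart, with the core C and G of each half-site kept. Capitals mark the match with no gap and 1 mismatch. It begins 195 bases before the start in Ccng1 (chr11:40755237-40755536, minus strand) and 51 bases before it in Cdkn1a (chr17:29090729-29091028, plus strand). In Gtse1 (chr15:85859696-85859995, plus strand) it begins 1 base before the start. Cdkn1a and Gtse1 hold 2 matches each, of which the one without a gap is marked. The other match of Cdkn1a has 0 mismatches, with 12 bases between its half-sites.
Ccng1: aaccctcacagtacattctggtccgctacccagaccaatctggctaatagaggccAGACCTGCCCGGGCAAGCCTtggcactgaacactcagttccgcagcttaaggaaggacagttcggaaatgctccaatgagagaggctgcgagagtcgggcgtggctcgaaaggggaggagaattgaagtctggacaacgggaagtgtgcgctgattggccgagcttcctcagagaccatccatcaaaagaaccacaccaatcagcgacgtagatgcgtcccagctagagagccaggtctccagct
Cdkn1a: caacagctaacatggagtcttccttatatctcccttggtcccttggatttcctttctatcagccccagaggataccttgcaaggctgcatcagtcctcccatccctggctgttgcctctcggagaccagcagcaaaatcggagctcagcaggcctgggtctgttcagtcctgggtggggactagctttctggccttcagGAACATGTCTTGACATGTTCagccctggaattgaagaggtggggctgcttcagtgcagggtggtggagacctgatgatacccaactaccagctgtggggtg
Gtse1: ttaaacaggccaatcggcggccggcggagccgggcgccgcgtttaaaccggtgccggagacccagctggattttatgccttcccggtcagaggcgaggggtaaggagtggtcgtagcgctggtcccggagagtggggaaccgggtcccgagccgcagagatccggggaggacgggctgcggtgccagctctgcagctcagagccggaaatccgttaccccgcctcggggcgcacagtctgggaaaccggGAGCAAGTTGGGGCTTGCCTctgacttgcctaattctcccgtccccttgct
With 1 mismatch allowed, 6 of the 178 higher genes with a promoter in the RefSeq table held a match (3.37%), none of the 72 lower genes did, and 54 of 9825 tested genes did (0.550%). With 2 mismatches allowed the shares were 8.99%, 5.56% and 4.52%. A match is a description of letters in this window, and no match says only that they are not there.

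Of 11 tested cell-death targets of p53, 6 rose, against 1.77% of all tested genes, and the median log2 change was 0.60. Apaf1, the scaffold of the apoptosome, was at 1654 and 1533 at 4 h, against 696 and 799 at 2 h (log2 change 1.09, SE 0.13, limma adjusted p = 0.00048). Ei24, a membrane protein of the endoplasmic reticulum, was at 1836 and 1837 at 4 h, against 1226 and 1204 at 2 h (0.60, limma adjusted p = 0.00026). Both calls held without any 1 library. Pmaip1, the BH3-only protein NOXA, was at 224 and 203 at 4 h, against 118 and 103 at 2 h (0.95, limma adjusted p = 0.019), and its call ended without any 1 library (0.075 to 0.19). Its untreated mean was 290, so the 4 h level lay between those of 2 h and untreated cells. Untreated libraries lie on the other side of the division between libraries, so time in auxin and that division cannot be told apart there. The death receptors Tnfrsf10b and Eda2r rose by log2 changes of 0.64 and 0.58 and the exonuclease gene Aen by 0.46. The Tnfrsf10b and Aen calls ended without 4 h replicate 2 or 2 h replicate 2 (limma adjusted p up to 0.14), and the Eda2r call without any 1 library (0.083 to 0.16). Bax and Bbc3, the killers BAX and PUMA, had log2 changes of 0.26 and 0.47 that were not called (limma adjusted p = 0.22 and 0.17). Both were called in the fit of the 2 to 12 h libraries (0.034 and 0.022). Fas, a death receptor, was near the bottom of the range, at 5.59 and 4.77 in 4 h libraries, against 0.956 and 0 in 2 h libraries, and was not called (log2 change 2.14, SE 0.68, limma adjusted p = 0.14).

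Among the DNA-repair targets, Polk alone was called. Polk, a translesion DNA polymerase, was at 854 and 787 at 4 h, against 402 and 383 at 2 h (log2 change 1.06, SE 0.10, limma adjusted p = 0.00016, and 0.0021 to 0.0046 without any 1 library). The other 8, with Xpc, Ddb2 and Pcna among them, had log2 changes between -0.10 and 0.43. Of these, Rrm2b was at 88.3 and 226 in 4 h libraries, against 101 and 109 in 2 h libraries, so its replicates differed by more than the times did.

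Genes of metabolism and signalling gave the smallest p of the comparison among p53 targets. Ddit4, which encodes the mTORC1 inhibitor REDD1, was at 956 and 954 at 4 h, against 309 and 288 at 2 h (log2 change 1.67, SE 0.11, limma adjusted p = 5.2e-06). Sesn2, another inhibitor of mTORC1 signalling, was at 5617 and 5784 at 4 h, against 3532 and 3415 at 2 h (0.71, limma adjusted p = 0.00016). Slc19a2, a thiamine transporter, rose by 0.64, and all 3 calls held without any 1 library. Phlda3, an inhibitor of AKT, rose by 1.12, the phosphatase Ptp4a3 by 0.70 and the ephrin receptor Epha2 by 0.32. Without 4 h replicate 2 the Phlda3 call ended (limma adjusted p = 0.067), the Ptp4a3 call without 4 h replicate 2 or either 2 h library (up to 0.22), and the Epha2 call without any 1 library (0.19 to 0.29) and with the GC trend removed (0.24). Sesn1, the paralog of Sesn2, was at 452 and 398 in 4 h libraries, against 411 and 399 in 2 h libraries (log2 change 0.07, limma adjusted p = 0.88).

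**Figure D2:**
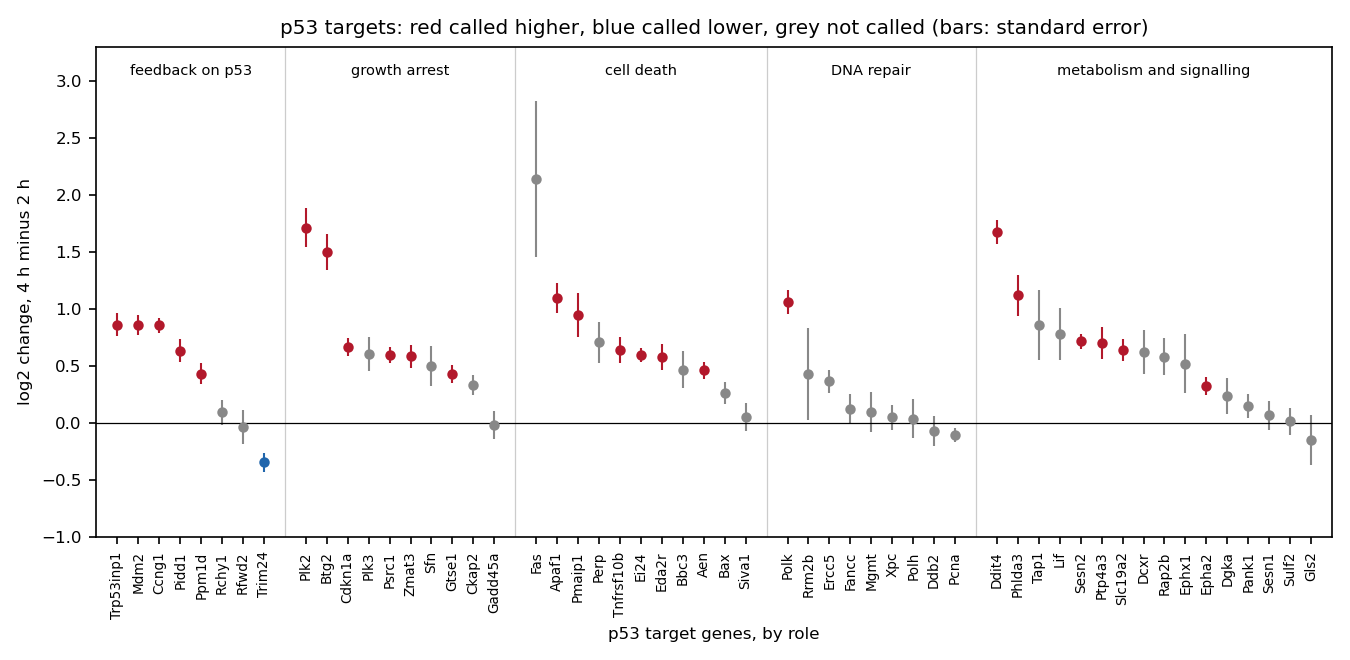
Log2 change of the 54 tested p53 targets (4 h minus 2 h, vertical axis) by role, with bars for the standard error from the limma fit. Of the 54, 24 are called higher (red), 1 lower (blue, Trim24) and 29 are not called (grey), and 48 lie above 0.

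Of 9 tested regulators of p53, 1 rose (11.1%, against 1.77% of all tested genes). Trp73, which encodes the p53 relative p73, was at 269 and 282 at 4 h, against 127 and 105 at 2 h (a log2 change of 1.25, limma adjusted p = 0.0024, and 0.012 to 0.043 without any 1 library). Mdm4, the partner of MDM2 that holds p53 inactive, was at 8608 and 8533 at 4 h, against 5972 and 6254 at 2 h. Its log2 change of 0.49 was not called in the fit of all libraries (limma adjusted p = 0.13) and was called in the fit of the 2 to 12 h libraries (6.4e-05).

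A transcript next to the microRNA gene Mir34a rose. It was singled out, with Mir17hg, after its values were seen. The gene is named RP23-169H13.6 in the table and Gm37795 in GENCODE M21, is annotated as TEC, a class still awaiting experimental evidence, lies at chr4:150068539-150070997 on the plus strand and shares 17 bases with the Mir34a hairpin. It stood at 826 and 823 at 4 h, against 363 and 339 at 2 h (log2 change 1.23, SE 0.14, limma adjusted p = 0.00043, and 0.0047 to 0.0098 without any 1 library). Mir34a is a known p53 target, and Mir17hg, the host transcript of the miR-17-92 cluster (chr14:115042879-115046727, plus strand), encodes microRNAs that favour proliferation. Mir17hg was at 698 and 680 at 4 h, against 1019 and 949 at 2 h (-0.51, limma adjusted p = 0.049). Its call ended without any 1 library (0.18 to 0.28) and with the GC and length trend removed (0.061). Mature microRNAs were not measured. The RefSeq sequence of 1 mature microRNA from each hairpin of both loci is shown, with its seed, bases 2 to 8, in capitals. Other arms of these hairpins are not shown.
miR-34a-5p: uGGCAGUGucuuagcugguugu
miR-17-5p: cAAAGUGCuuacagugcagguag
miR-20a-5p: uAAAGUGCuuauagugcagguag
miR-18a-5p: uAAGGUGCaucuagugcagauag
miR-19a-3p: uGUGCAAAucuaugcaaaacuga
miR-19b-3p: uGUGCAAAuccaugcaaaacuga
miR-92a-3p: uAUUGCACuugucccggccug
In the cluster, miR-17-5p and miR-20a-5p share a seed, as do miR-19a-3p and miR-19b-3p, and miR-34a-5p has a seed of its own.

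The largest rises held the p53 targets Plk2, Ddit4 and Btg2. By size of log2 change, among called genes that averaged 50 or more over the 4 libraries and showed no overlap between the times, the 12 largest included Fam212b, Scn3b, Neurod1, Mdga1, Plk2, Hmcn2, Ddit4, Sp6, Col2a1, Btg2 and Sowahb. Fam212b, which encodes an inhibitor of the kinase PAK4, was at 151 and 158 at 4 h, against 35.3 and 28.4 at 2 h (log2 change 2.24, limma adjusted p = 0.0077). Scn3b, a sodium channel subunit, was at 155 and 114 at 4 h, against 33.0 and 35.4 at 2 h (1.93, limma adjusted p = 0.0050). Neurod1, a neuronal transcription factor, was at 120 and 139 at 4 h, against 26.8 and 42.8 at 2 h (1.90, limma adjusted p = 0.00053). Of the 12, the calls of Neurod1, Mdga1, Plk2, Hmcn2, Ddit4 and Btg2 held without any 1 library.
Without 1 library the log2 change of Fam212b was 2.09 to 2.40 and that of Scn3b 1.71 to 2.15. Calls of these and other genes among the largest rises ended in some or all of the fits that left out 1 library. Those of Fam212b and Sowahb ended without either 4 h library or 2 h replicate 2 (limma adjusted p up to 0.14), and that of Scn3b without 4 h replicate 1 or 2 h replicate 1 (up to 0.080). That of Col2a1, a collagen gene, ended without 4 h replicate 2 or 2 h replicate 2 (up to 0.19), and that of Sp6, a transcription factor gene, without any 1 library (0.063 to 0.18). Mdga1, a cell-surface adhesion protein, was at 234 and 219 at 4 h, against 51.4 and 77.2 at 2 h (1.83, limma adjusted p = 0.00047). Hmcn2, a matrix protein, was at 79.2 and 103 at 4 h, against 27.0 and 27.1 at 2 h (1.71, limma adjusted p = 0.0013). All of these calls held with the GC and length trend removed. Apart from Plk2, Ddit4 and Btg2, none of the genes named exceeded the 234 normalized counts of Mdga1 in any of the 4 libraries.

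**Figure D3:**
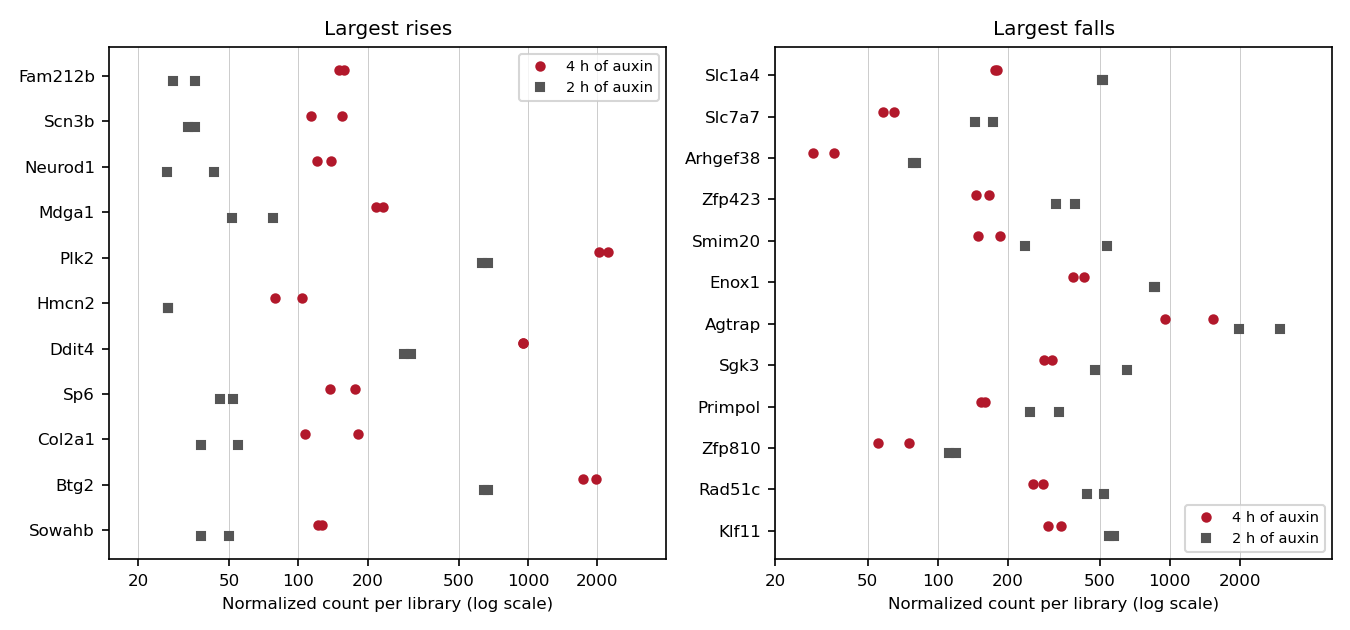
Normalized count in each library (log scale) of 11 of the 12 genes with the largest called rises (left) and the 12 with the largest called falls (right), with 4 h libraries as red circles above 2 h libraries as grey squares. The rule kept only genes whose times do not overlap, and the 2 h libraries of Smim20 stand at 238 and 535.

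Carriers of amino acids led the falls. Slc1a4, the exchanger ASCT1 for alanine, serine and cysteine, was at 176 and 181 at 4 h, against 512 and 518 at 2 h, or 0.348 of the 2 h level (log2 change -1.52, SE 0.15, limma adjusted p = 0.00016, and 0.0023 to 0.0046 without any 1 library). Slc7a7, a light chain that exchanges cationic amino acids, was at 65.1 and 58.3 at 4 h, against 145 and 173 at 2 h (-1.35, limma adjusted p = 0.022). Enox1, an electron-transfer protein of the cell surface, was at 425 and 382 at 4 h, against 860 and 858 at 2 h (-1.09, limma adjusted p = 0.0016). Of the 12 largest falls, Slc1a4 and Enox1 alone kept their calls without any 1 library. The other 9 besides Slc7a7 were Arhgef38, Zfp423, Smim20, Agtrap, Sgk3, Primpol, Zfp810, Rad51c and Klf11, with log2 changes of -1.27 to -0.81. The calls of Slc7a7, Arhgef38, Zfp423, Sgk3, Zfp810 and Rad51c ended without any 1 library (limma adjusted p of 0.067 to 0.40). Those of Primpol, Klf11, Agtrap and Smim20 ended without some, Primpol without either replicate 2 (up to 0.100), Klf11 and Agtrap without 4 h replicate 2 or either 2 h library (up to 0.42), and Smim20 without either 4 h library or 2 h replicate 2 (up to 0.37). With the GC and length trend removed, 9 of the 12 were called, and Smim20, Sgk3 and Zfp810 were not (0.052 to 0.055).
Rad51c and Primpol act on DNA. Rad51c, a protein of homologous recombination, was at 257 and 285 at 4 h, against 439 and 523 at 2 h (-0.82, limma adjusted p = 0.022). Primpol, a primase that restarts stalled replication forks, was at 160 and 154 at 4 h, against 249 and 332 at 2 h (-0.87, limma adjusted p = 0.0059). Agtrap, which encodes a partner of the angiotensin II receptor, was at 1535 and 954 at 4 h, against 2998 and 1995 at 2 h.

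Of 38 tested genes listed as targets of ATF4, the transcription factor of amino acid shortage, 7 fell, against 0.681% of all tested genes called lower. None of the 38 rose, and their median log2 change was -0.20. Ddit4 and Sesn2, called higher above, were listed with the p53 targets and are not in the ATF4 list. At an unadjusted p below 0.05, limma counted 17 lower and 2 higher, against the 6.47% and 7.85% of all tested genes given above. In the fit of the 2 to 12 h libraries 15 fell and none rose, against 3.64% and 4.81% of all tested genes. The falls were in amino acid transport (2 of 8, median -0.41), amino acid synthesis (3 of 9, median -0.23) and aminoacyl-tRNA synthetases and tRNA export (2 of 8, median -0.18). Of the 13 transcription factors and stress effectors none was called, their median was 0.14, and 2 were higher and 2 lower at an unadjusted p below 0.05. The lowest log2 change of the list was in that role: Stc2, the secreted stanniocalcin 2, was at 9.06 and 23.5 at 4 h, against 64.2 and 34.6 at 2 h (-1.62, limma adjusted p = 0.097). The difference between the roles was not tested.
Besides Slc1a4, the members that fell make or carry amino acids or charge tRNAs. The cationic amino acid transporter Slc7a3 was at 2713 and 2541 at 4 h, against 3570 and 3590 at 2 h (log2 change -0.45, limma adjusted p = 0.036). Mthfd2, a mitochondrial enzyme of the folate cycle, was at 1129 and 1080 at 4 h, against 1631 and 1529 at 2 h (-0.52, limma adjusted p = 0.030). Aldh18a1, which makes the precursor of proline, was at 1180 and 1113 at 4 h, against 1590 and 1637 at 2 h (-0.49, limma adjusted p = 0.028). Psat1, of serine synthesis, fell by a log2 change of 0.35, Nars, the asparaginyl-tRNA synthetase, by 0.30, and Gars, the glycyl-tRNA synthetase, by 0.23. In all 7 both 4 h libraries were below both 2 h libraries, as they were in 27.8% of all tested genes. Apart from that of Slc1a4, each of these calls ended without any 1 library (limma adjusted p of 0.10 to 0.40), and those of Mthfd2 (0.051) and Gars (0.067) ended with the GC and length trend removed. Atf4 mRNA itself was at 3261 and 3261 at 4 h, against 3968 and 3843 at 2 h (-0.26, limma adjusted p = 0.20), and Ddit3, the effector CHOP, at 90.4 and 111 at 4 h, against 71.2 and 70.7 at 2 h (0.49, limma adjusted p = 0.28).

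Receptors for LIF fell. Lifr was at 1379 and 1389 at 4 h, against 1837 and 2153 at 2 h (a log2 change of -0.52, limma adjusted p = 0.038), and Il6st, which encodes its signalling partner gp130, at 1990 and 1913 at 4 h, against 2630 and 2617 at 2 h (-0.43, limma adjusted p = 0.045). These are 2 of 9 tested genes of the pathway, a share of 22.2% against 0.681% of all tested genes, and none rose. The list median was -0.23, and -0.36 with the GC and length trend removed. Both calls ended without any 1 library (limma adjusted p of 0.067 to 0.33). At 2 h both were above their untreated means of 1505 and 1975, and at 4 h Lifr was below that mean and Il6st close to it. The untreated libraries lie on the other side of the division between libraries.

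Of 33 tested pluripotency genes, 3 fell (9.09%, against 0.681% of all tested genes) and none rose, with a median log2 change of -0.18 and 6 of the 33 above 0. Utf1, a chromatin protein of undifferentiated cells, was at 2521 and 2692 at 4 h, against 3887 and 3705 at 2 h (log2 change -0.54, SE 0.08, limma adjusted p = 0.0032). Zfp42, known as REX1, was at 8937 and 9144 at 4 h, against 11918 and 11615 at 2 h (-0.38, limma adjusted p = 0.0032). Fgf4, the fibroblast growth factor that stem cells secrete, was at 3380 and 3351 at 4 h, against 4029 and 4022 at 2 h (-0.26, limma adjusted p = 0.031). The Utf1 call ended without either replicate 1 (limma adjusted p up to 0.054), the Zfp42 call without 2 h replicate 1 (0.055) and the Fgf4 call without any 1 library (0.15 to 0.23), so leaving out 1 library left 0 to 2 members called. The sums of neural and trophoblast markers given above, each led by 1 gene, also differed between the times, and their part in these falls was not tested.
The core factors were not called. Pou5f1 (OCT4) was at 15537 and 16615 at 4 h, against 16408 and 17626 at 2 h (-0.08, limma adjusted p = 0.69), and Nanog at 14567 and 14560 at 4 h, against 15530 and 15605 at 2 h (-0.10, limma adjusted p = 0.55). Sox2 had a log2 change of -0.14 (limma adjusted p = 0.41). At an unadjusted p below 0.05 limma counted 12 pluripotency genes lower, against 6.47% of all tested genes. In the fit of the 2 to 12 h libraries 14 were called lower, against 3.64% of all tested genes. Tdgf1, a co-receptor of Nodal, was at 3772 and 3764 at 4 h, against 5441 and 5463 at 2 h, and was called in the fit of the 2 to 12 h libraries (limma adjusted p = 5.0e-05) but not in that of all libraries (0.072).

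Of 15 tested genes of FGF/ERK feedback, 2 fell (13.3%, against 0.681% of all tested genes). Etv5, a target of ERK signalling, was at 7926 and 7918 at 4 h, against 9515 and 9595 at 2 h (log2 change -0.27, limma adjusted p = 0.027). The other was Fgf4, and the list median was -0.20. Foxd3, a forkhead factor of the epiblast, was at 532 and 540 at 4 h, against 885 and 899 at 2 h (-0.73, limma adjusted p = 0.0078). Foxd3 and Etv5 were the 2 of 11 formative and primed genes that fell (18.2%). Both calls ended without any 1 library (limma adjusted p of 0.067 to 0.21), and that of Etv5 with the GC trend removed (0.055).

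Notch receptors and the sterol enzyme gene Hmgcs1 rose. Notch3 was at 1147 and 1122 at 4 h, against 629 and 565 at 2 h (a log2 change of 0.93, limma adjusted p = 0.015), and Notch1 at 2035 and 1975 at 4 h, against 1062 and 1267 at 2 h (0.79, limma adjusted p = 0.012). These are 2 of 12 tested genes of the pathway (16.7%, against 1.77% of all tested genes). The list median was 0.32, and 0.52 both without 2 h replicate 1 and with genes kept only from a mean of 50 up. The Notch3 call ended without any 1 library (limma adjusted p of 0.067 to 0.15), the Notch1 call without either 4 h library or 2 h replicate 1 (up to 0.15), and both with the GC and length trend removed (0.068 and 0.065). Hmgcs1, which makes HMG-CoA early in sterol synthesis, was at 6149 and 5997 at 4 h, against 4396 and 4485 at 2 h (0.45, limma adjusted p = 0.0022, and 0.027 to 0.037 without any 1 library). Of 25 sterol genes 2 rose (8%, against 1.77% of all tested genes) and 23 lay above 0. Their median was 0.29, against -0.0097 for all tested genes. In the fit of the 2 to 12 h libraries 12 rose, against 4.81% of all tested genes.

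Cyp1a1, the cytochrome P450 that the aryl hydrocarbon receptor switches on, rose. It was at 987 and 973 at 4 h, against 415 and 328 at 2 h (log2 change 1.41, limma adjusted p = 0.0075). The untreated mean was 62.1 and the mean after withdrawal 56.7, both from libraries on the other side of the division between libraries. The call ended without either 4 h library or 2 h replicate 2 (limma adjusted p up to 0.11). The other 9 tested genes of that receptor's list were not called, so 10% of the list rose, against 1.77% of all tested genes. The list median was 0.03.

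Of 61 tested genes that assemble the small ribosomal subunit, 1 fell (1.64%, against 0.681% of all tested genes). This was Dimt1, a methyltransferase of 18S rRNA, at 676 and 611 at 4 h, against 841 and 855 at 2 h (log2 change -0.40, limma adjusted p = 0.022). Its call ended without any 1 library (0.055 to 0.26) and with the GC and length trend removed (0.062). Of 56 genes for the large subunit none was called. At an unadjusted limma p below 0.05, 2 were higher and 4 lower, against 7.85% and 6.47% of all tested genes. The medians were -0.04 and -0.05. Of 29 genes of RNA polymerase I and III, 1 rose (3.45%, against 1.77% of all tested genes). This was Gtf3c1, of the factor TFIIIC, with a log2 change of 0.38. Its call ended without any 1 library and with the GC trend removed (limma adjusted p = 0.066). Of 7 noncoding hosts of snoRNAs, all lay below 0, with a median of -0.34. Snhg6 alone fell (14.3% of the list, against 0.681% of all tested genes), at 134 and 132 at 4 h, against 232 and 231 at 2 h (-0.80, limma adjusted p = 0.036), a call that ended without any 1 library (0.16 to 0.23) and with the GC trend removed (0.068). In the fit of the 2 to 12 h libraries 5 of these hosts fell, against 3.64% of all tested genes.

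Of 30 mitotic genes, 2 rose (6.67%, against 1.77% of all tested genes), Psrc1, given above, and Ccnf, cyclin F. Ccnf was at 7073 and 7336 at 4 h, against 5079 and 4990 at 2 h (a log2 change of 0.52, limma adjusted p = 0.0027, and 0.025 to 0.049 without any 1 library). The median of the mitotic genes was 0.11, and that of 28 genes of G1/S and replication -0.08. Of those 28 none was called. At an unadjusted limma p below 0.05, 0 were higher and 4 lower, against 7.85% and 6.47% of all tested genes. Rbl1, the retinoblastoma relative p107, was at 657 and 701 at 4 h, against 964 and 1024 at 2 h (-0.55, limma adjusted p = 0.022), and its call ended without any 1 library (0.099 to 0.21). Its relatives stood the other way without a call in this fit: Rb1 was at 447 and 391 at 4 h, against 209 and 269 at 2 h (0.82, limma adjusted p = 0.079), and Rbl2 at 317 and 259 at 4 h, against 191 and 155 at 2 h (0.73, limma adjusted p = 0.051).

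Of 25 genes of glycolysis and hypoxia, 2 fell (8%, against 0.681% of all tested genes). Pfkp, a phosphofructokinase, fell by a log2 change of 0.44 and Pdk1, which shuts off pyruvate dehydrogenase, by 0.81. Of 11 genes of the MYC network Mnt, a MYC antagonist, fell by 0.55 and Mycl rose by 0.45, each 9.09% of the list. Of 15 clock genes Nr1d2, the repressor REV-ERB beta, fell by 0.63 (6.67% of the list). Of all tested genes 0.681% were called lower and 1.77% higher. The calls of Mnt, Mycl and Nr1d2 ended without any 1 library (limma adjusted p of 0.057 to 0.41), that of Pfkp without 4 h replicate 1 or either 2 h library (up to 0.15), and that of Pdk1 without either 4 h library or 2 h replicate 2 (up to 0.29). No gene was called of 34 of the respiratory chain (2 higher and 0 lower at an unadjusted limma p below 0.05), 20 immediate early genes (4 and 1), 20 lysosomal genes (1 and 0), 15 of the unfolded protein response (0 and 3), 13 of the Nodal pathway (5 and 1) or 12 heat shock genes (3 and 1). At that unadjusted threshold 7.85% of all tested genes were higher and 6.47% lower. In the fit of the 2 to 12 h libraries, 3 immediate early, 3 Nodal and 3 heat shock genes were called higher and 1 of each lower. That fit called 2 lysosomal genes higher, 2 of the unfolded protein response lower and none of the respiratory chain. Of all tested genes it called 4.81% higher and 3.64% lower. The 11 listed ribosomal protein genes were not analysed here.

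**Figure D4:**
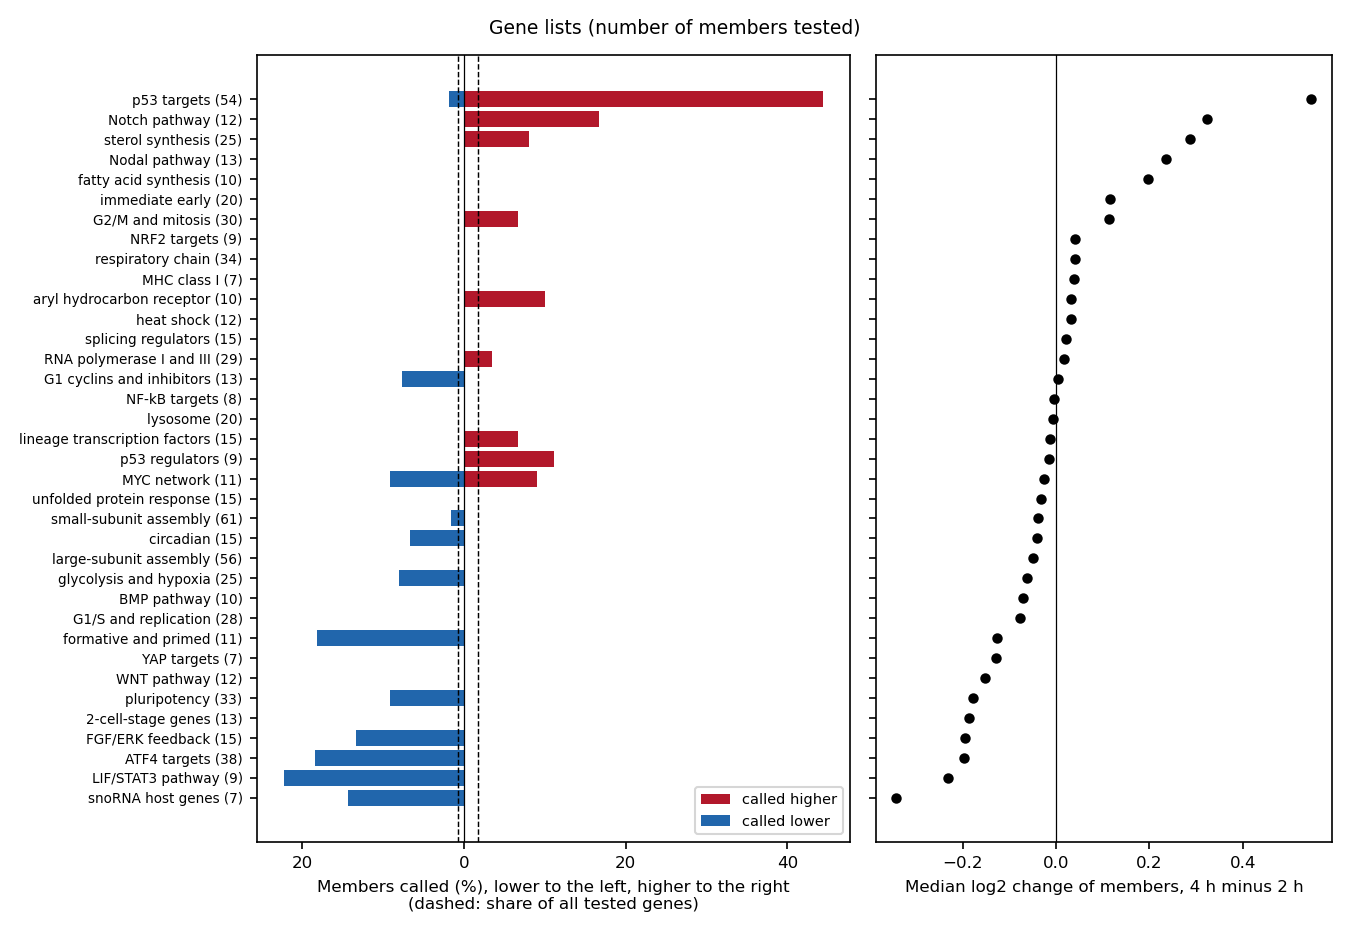
Left, percent of the tested members of each of 36 gene lists called higher (red, to the right) or lower (blue, to the left) at 4 h over 2 h, with dashed lines at the shares of all tested genes, 1.77% and 0.681%. Right, median log2 change of the members, from 0.55 for p53 targets down to -0.34 for snoRNA hosts.

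The genes called here could be followed in comparisons that share none of these 4 libraries, although 1 model gave the spread for all. Of the 236 genes higher at 4 h than at 2 h, 193 were also higher at 2 days of auxin than after withdrawal (81.8%, and 7.55% of the genes higher there, against 19.1% of all tested genes), and 6 were lower. At 1 day of auxin over untreated cells 192 of them were higher (81.4%, and 9.04% of the genes higher there, against 15.9% of all tested genes), and 5 were lower. The median log2 change of the 236 was 0.96 and 1.03 in those comparisons. Of the 91 lower genes, 56 were lower at 2 days over withdrawal (61.5%, and 1.89% of the genes lower there, against 22.2%) and 10 higher, and 53 were lower at 1 day over untreated (58.2%, and 2.25%, against 17.7%) and 8 higher.
Single genes took different courses after 4 h. Mdm2 averaged 2454 in untreated cells, 5903 at 4 h, 5276 at 6 h and 2320 after withdrawal. Slc1a4 averaged 681 in untreated cells, 179 at 4 h, its lowest mean of the series, and 220 at 6 h. Hmgcs1 was at its highest mean of the series at 4 h and averaged 4917 at 6 h. Enox1 averaged 296 at 6 h, lower than at 4 h. Untreated, 1 day, 2 day and withdrawal libraries lie on the other side of the division between libraries. Differences of 4 h from them cannot be told apart from that division.

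**Figure D5:**
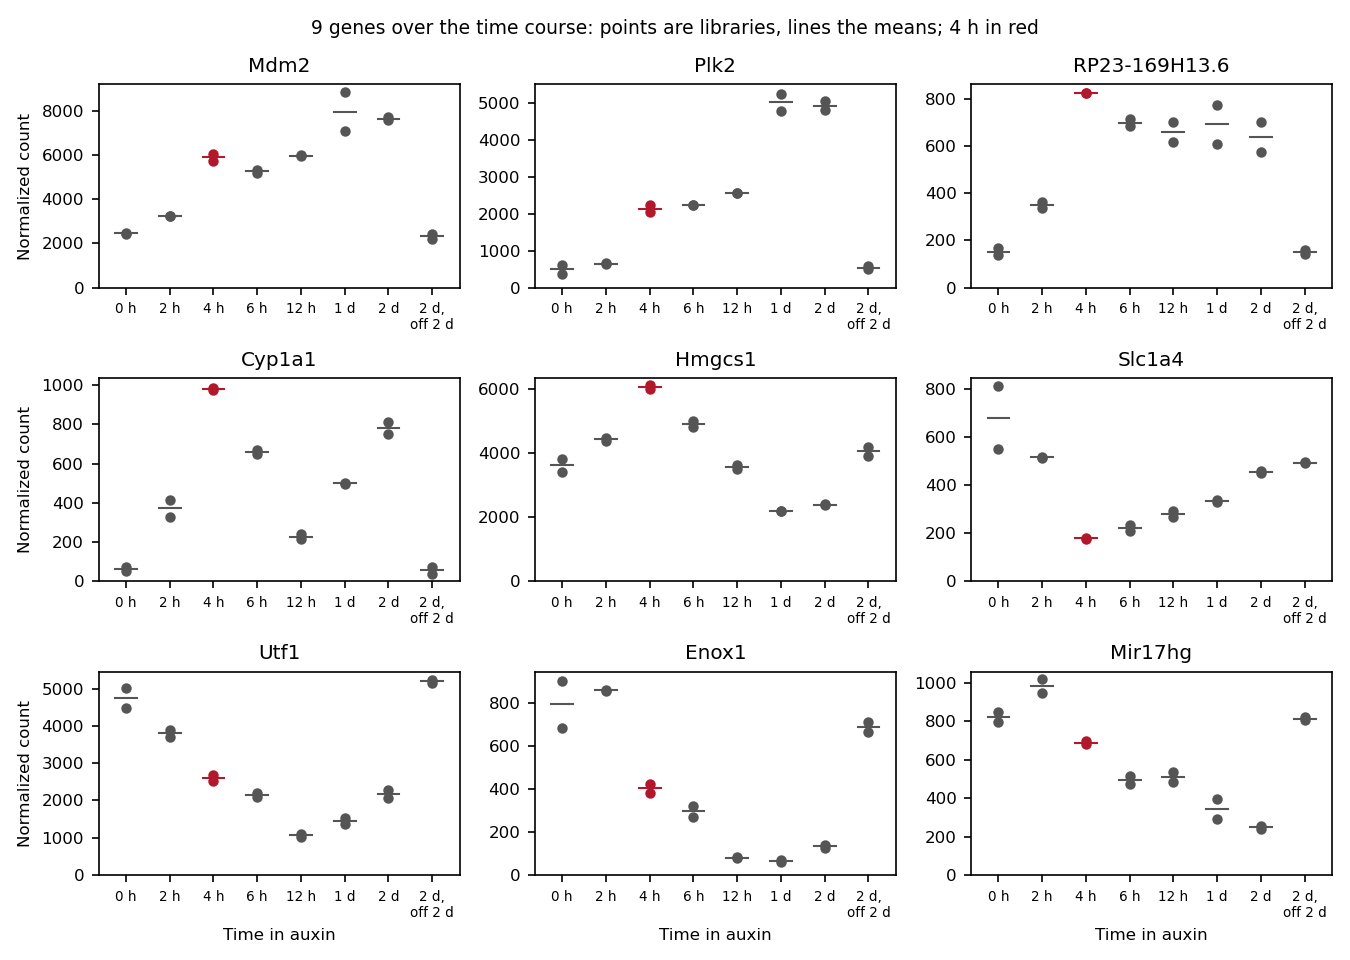
Normalized count (vertical axis, from 0) of 9 genes in the 2 libraries of each of the 8 groups in order of time in auxin, ending with 2 days of auxin followed by 2 days of withdrawal, with lines at the means and 4 h in red. Slc1a4 is lowest and Cyp1a1, Hmgcs1 and RP23-169H13.6 are highest at 4 h, while Enox1, Utf1 and Mir17hg go on below their 4 h level at 6 h and 12 h. The groups of 2 h to 12 h and the other groups lie on different sides of the division between libraries.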

How the data were processed

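The samples were mRNA sequencing libraries of 8 groups of 2, grouped by their titles. The deposited table holds normalized read counts, a signal that the authors made from gene-level counts divided by a scaling factor per library: this rests on the table's name and values, which are not whole. Per the submitters' processing notes Trim Galore, STAR, RSEM and DESeq2 were used with mm10 (GRCm38). Not given in the sources used here are versions, roles, strand setting and annotation, so reads of overlapping or antisense genes cannot be told apart. For 1484 genes with 1 transcript, 66.4% to 99.1% of values up to 20 steps lay within 0.1 of a whole multiple of 1 read, so reads could not be recovered for all genes. The estimated depth was 16.5 M and 16.2 M reads at 4 h, against 16.2 M and 16.2 M at 2 h. Counting error of low genes is covered by the spread between libraries only.

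Values were tested as log2(value + 1), which understates the change of low genes, in limma 3.58.1 under R 4.3.3, with all 16 libraries, a mean per group, an intensity trend and 8 residual degrees of freedom. Genes with a Benjamini-Hochberg adjusted p below 0.05 are called. The code was tested on simulated data. Positions are from GENCODE M21, in which 14467 gene identifiers were found and 85 were not. In the tables of RefSeq promoters 9825 of 13338 tested symbols matched. The members, the lists, written from general knowledge, and the tests were chosen with earlier results of these data known. Genes named are Ddx10, Trp53 and Mdm2, the 12 largest rises and 12 largest falls under the stated limits, and up to 4 genes of smallest p per list. Further members of the p53, ATF4 and pluripotency lists, and the 2 genes of microRNA loci, were named after their values were seen. There were 15 alternatives planned and 2 added after seeing the data. Some genes that these rules name are not reported here.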

Additional observations from a re-analysis of the deposited data

How the results depend on the processing

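No call of the genes named by rule turned its direction under any of the 17 alternatives. The counts of 236 higher and 91 lower genes moved with the libraries that supply the spread: 393 and 301 with the 4 h and 2 h libraries fitted alone, 642 and 486 with the libraries of 2 to 12 h (chosen after seeing the data), 659 and 518 without the untreated and 1 day libraries (chosen after seeing the data), and 662 and 458 with library weights. Without an intensity trend 182 were higher and 47 lower. Without 1 library the counts were 87 to 108 higher and 10 to 15 lower, with the lone library assumed to vary like the other groups. Other pseudocounts, filters and scalings gave 235 to 258 higher and 82 to 99 lower. Of 57 called genes named by rule, 22 to 24 kept their call without 1 library, 45 with the GC and length trend removed and 36 without an intensity trend. Replicate numbers pair nothing in the labels, and the replicates' differences at 4 h and 2 h had a correlation of -0.04 across genes. A fit with the replicate number as a block gave 212 higher and 80 lower genes, 204 and 75 of them called without the block, and kept 49 of the 57. Among the lists, the medians of p53, sterol, ATF4, pluripotency, Notch and snoRNA host genes kept their sign in every alternative, and p53 targets stayed between 0.47 and 0.55. The median changed sign in at least 1 alternative for 14 of the 36 lists. Fas, a gene of low level, had a standard error of 0.68, against a median of 0.158 over all genes.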
